A study of Mus musculus with 6 samples.

Results

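*Slc2a13* and 5 further genes that supply cells with myo-inositol were examined in the cerebellum of mice with a neuron-specific knockout of the metal transporter gene *Slc39a8*. These 6 genes, out of the 53715 genes in the deposited table, are the inositol transporters *Slc2a13*, *Slc5a3*, and *Slc5a11* and the enzymes of inositol synthesis *Isyna1*, *Impa1*, and *Impa2*. *Slc2a13* was chosen by its level in these same libraries, as one of the genes that the study names as lower in the knockout, so its difference between the genotypes is given as a description without a test. The other 5 genes were picked for their function, and they were tested in a fit over all genes. The study compared 3 control with 3 *Slc39a8*-NSKO mice by RNA-Seq of the whole cerebellum, with 1 library per mouse. All were males aged 4 weeks, labelled C57BL/6, and the methods give C57BL/6J as the background of the crossed lines. Cre recombinase driven by the synapsin promoter in the knockout mice is meant to delete both floxed *Slc39a8* alleles in neurons. By this design, glial and vascular cells of the tissue keep the gene. The study names as a limit that expression of this Cre may vary across brain regions. The labels call the controls WT, whereas the study elsewhere names *Slc39a8* fl/fl mice as controls, and the labels give no Cre or flox status. In whole tissue, fewer cells of a type and less RNA per cell cannot be told apart.

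Myo-inositol is the sugar alcohol from which cells build phosphatidylinositol and, through it, the second messenger inositol trisphosphate. In the brain it is also an osmolyte that cells gain or lose as they adjust their volume. Cells obtain it by import, with protons through the *Slc2a13* product (HMIT) or with sodium through the products of *Slc5a3* (SMIT1) and *Slc5a11* (SMIT2). They also make it from glucose 6-phosphate, which inositol-3-phosphate synthase (*Isyna1*) converts to inositol phosphate and inositol monophosphatase (*Impa1* and *Impa2*) then dephosphorylates. The monophosphatases also recycle inositol from spent inositol phosphates and are inhibited by lithium. Inositol trisphosphate signaling is prominent in Purkinje cells of the cerebellum, which carry large amounts of its receptor.

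The table held between 14431260 and 20844267 counts on genes per mouse. For *Slc39a8* itself, the 3 control libraries gave 99, 46, and 44 counts and the 3 *Slc39a8*-NSKO libraries 38, 40, and 41. Every knockout mouse was lower once the counts were scaled to library size, and the log2 fold change of −0.83 (standard error 0.237) did not pass the threshold of 0.05 on the adjusted p (0.534 in the quasi-likelihood fit of edgeR). The counts cover the whole gene and not only its deleted part. Control mouse 1, the deepest library, had the highest *Slc39a8* level, and the log2 fold change became −0.56 without it. Over the 16330 genes tested, 16 genes had an adjusted p below 0.05 (0.0980% of the genes tested), and in 10.3% there was no overlap between genotypes. The median log2 fold change of all genes tested was 0.0011.

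*Slc2a13* (ENSMUSG00000036298.10) spans positions 91267696 to 91573261 of chromosome 15 in GRCm38 and is read from the minus strand. It is a long gene, with 305566 bases that hold 8367 bases of merged exons. The 250 bases before its annotated start and the first 20 bases after it are shown beside the same stretch of *Pde10a* and *Creb5*, whose levels followed those of *Slc2a13* most closely over the mice, and of *Slc5a3*, the next most abundant importer. Products of *Creb5* and its relatives bind the cAMP response element (CRE), and the letters of that element were searched for in each window. The windows are taken from RefSeq on GRCm38.p6 and are read 5′ to 3′ on the strand of the gene, and the capitals mark the letters TGACG or their reverse complement CGTCA, the half-site of the CRE. They cover chr15:91573242-91573511 on the minus strand (*Slc2a13*), chr17:8801495-8801764 on the plus strand (*Pde10a*), chr6:53287053-53287322 on the plus strand (*Creb5*), and chr16:92058072-92058341 on the plus strand (*Slc5a3*).
Slc2a13: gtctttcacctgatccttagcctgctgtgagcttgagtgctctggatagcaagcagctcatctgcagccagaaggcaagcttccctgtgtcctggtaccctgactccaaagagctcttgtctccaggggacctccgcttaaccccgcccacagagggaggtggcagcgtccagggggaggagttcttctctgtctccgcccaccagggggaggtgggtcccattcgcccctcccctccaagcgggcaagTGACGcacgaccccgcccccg
Pde10a: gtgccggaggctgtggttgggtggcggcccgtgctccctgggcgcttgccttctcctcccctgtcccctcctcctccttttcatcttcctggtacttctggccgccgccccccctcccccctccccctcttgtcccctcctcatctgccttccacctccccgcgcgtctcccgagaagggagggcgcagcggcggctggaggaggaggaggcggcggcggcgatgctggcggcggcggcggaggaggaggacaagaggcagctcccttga
Creb5: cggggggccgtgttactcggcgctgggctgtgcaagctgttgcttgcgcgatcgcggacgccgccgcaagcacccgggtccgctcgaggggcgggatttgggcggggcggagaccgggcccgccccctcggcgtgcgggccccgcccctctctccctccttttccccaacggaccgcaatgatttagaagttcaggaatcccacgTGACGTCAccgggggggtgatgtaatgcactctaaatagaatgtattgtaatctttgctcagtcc
Slc5a3: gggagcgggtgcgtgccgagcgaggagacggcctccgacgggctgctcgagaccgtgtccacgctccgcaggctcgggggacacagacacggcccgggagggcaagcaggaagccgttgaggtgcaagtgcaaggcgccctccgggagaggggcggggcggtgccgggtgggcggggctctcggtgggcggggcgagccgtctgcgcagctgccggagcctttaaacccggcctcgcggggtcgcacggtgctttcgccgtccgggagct
The *Slc2a13* window holds 1 half-site, from position −1 to position 4 around the annotated start, and no full CRE (TGACGTCA). The *Creb5* window, the first of its 2 in RefSeq, holds a full CRE from position −45 to −38, which overlaps an E-box (CACGTG). The windows of *Slc5a3* and *Pde10a*, and the second windows of *Pde10a* and *Creb5*, hold neither a half-site nor a full CRE. Both strands were searched from 250 bases before to 50 bases after each start. Of all 32851 such windows, 20.8% held a half-site and 1.79% a full CRE, which itself contains the half-site. The AP-1 letters TGANTCA (7.81% of windows), the E-box (7.15%), and the core TGGAAA of the osmotic factor NFAT5 (21.4%) were also searched. The second window of *Creb5* held the AP-1 letters from position −45 to −39, and the second window of *Pde10a* held the NFAT5 core from −245 to −240. RefSeq windows were found for 4 of the 6 genes, namely *Slc2a13*, *Slc5a3*, *Slc5a11*, and *Isyna1*, and apart from the half-site of *Slc2a13* none of the 4 windows held any of these letters. Such matches describe the windows and say nothing of binding.

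*Slc2a13*, which encodes the proton-coupled importer HMIT, was lower in all 3 *Slc39a8*-NSKO mice than in any control. The controls 1 to 3 gave 1223, 835, and 773 counts, and the knockouts 1 to 3 gave 908, 652, and 659. In CPM, which are counts scaled to a common library size, these were 59.0, 58.1, and 49.7 CPM in control and 45.5, 33.5, and 35.0 CPM in *Slc39a8*-NSKO mice. Control mouse 3 was the lowest of its group and *Slc39a8*-NSKO mouse 1 the highest of its own, so that the closest values of the genotypes were 49.7 and 45.5 CPM. The means were 55.6 ± 5.15 CPM in control and 38.0 ± 6.52 CPM in *Slc39a8*-NSKO mice (SD, n = 3 each), which is 68.3% of the control level. The log2 fold change was −0.55 with a standard error of 0.105 and ranged from −0.70 without *Slc39a8*-NSKO mouse 1 to −0.47 without *Slc39a8*-NSKO mouse 2. Its counts were whole numbers in all 6 mice, as were those of the other 5 genes.

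**Figure D1:**
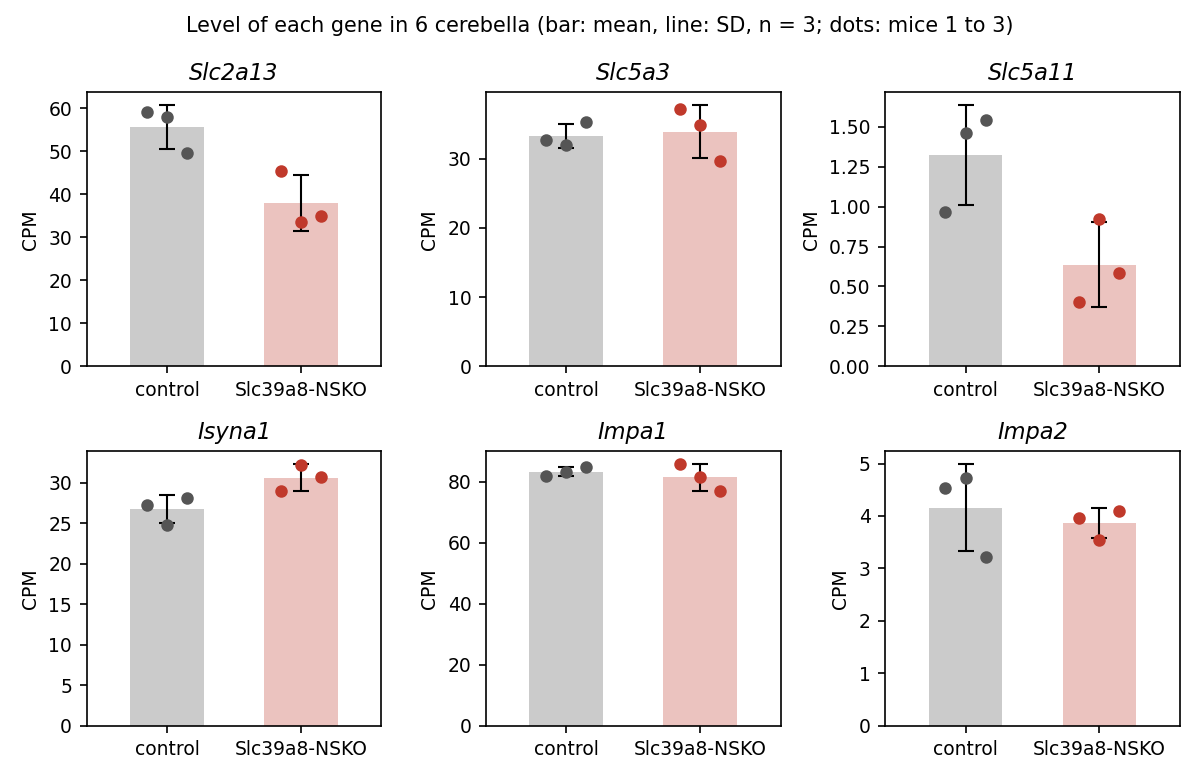
Level of each of the 6 genes in CPM (vertical axes, each from 0) in control and *Slc39a8*-NSKO cerebellum, where bars are means, lines are SDs with n = 3, and dots are mice 1 to 3 from left to right. *Slc2a13* and *Slc5a11* lie lower and *Isyna1* higher in all 3 *Slc39a8*-NSKO mice, while *Slc5a3*, *Impa1*, and *Impa2* overlap between the genotypes.

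Of the sodium-coupled importers, *Slc5a3* did not pass the test. *Slc5a3* (ENSMUSG00000089774.2, chromosome 16, 92058322 to 92087473, plus strand), which encodes the sodium-coupled transporter SMIT1, had 32.6, 32.0, and 35.3 CPM in control mice 1 to 3 and 37.2, 34.8, and 29.7 CPM in *Slc39a8*-NSKO mice 1 to 3. The genotypes overlapped, with *Slc39a8*-NSKO mice holding both the highest and the lowest value. The log2 fold change of 0.03 (standard error 0.086) had a 95% interval from −0.16 to 0.21 (edgeR adjusted p = 0.994). The interval corresponds to between 0.896 and 1.16 times the control level. *Slc5a3* starts within the gene *Mrps6*, which encodes a protein of the mitochondrial ribosome, and shares 159 bases of its exons with it, and it also overlaps *Gm49711*, which was not analysed here. *Mrps6* was counted 497, 386, and 431 times in controls 1 to 3 and 596, 617, and 551 times in knockouts 1 to 3, with a log2 fold change of 0.21 (edgeR adjusted p = 0.860).

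*Slc5a11* (ENSMUSG00000030769.15, chromosome 7, 123214780 to 123273253, plus strand), which encodes the second sodium-coupled transporter SMIT2, was barely counted in these cerebella. Controls 1 to 3 gave 20, 21, and 24 counts and knockouts 1 to 3 gave 8, 18, and 11. These were 1.32 ± 0.312 CPM in control and 0.636 ± 0.266 CPM in *Slc39a8*-NSKO mice (SD, n = 3 each), and every knockout mouse lay below every control mouse. The closest values were 0.965 CPM in control mouse 1 and 0.924 CPM in *Slc39a8*-NSKO mouse 2. The log2 fold change of −1.03 (standard error 0.386, 95% interval from −1.86 to −0.20) had a p of 0.0189 before and 0.860 after adjustment over all genes in the edgeR fit. It lay between −1.40 and −0.78 when single mice were left out. All 6 genes passed the filter on low counts, but *Slc5a11* passed it only through the control mice, since 2 of the 3 *Slc39a8*-NSKO mice reached the level of 0.523 CPM that the filter asks of 3 mice. For this reason nothing is read from the p of *Slc5a11*.

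*Isyna1* (ENSMUSG00000019139.10, chromosome 8, 70594373 to 70597290, plus strand), which encodes the enzyme of the first committed step of inositol synthesis, was slightly higher in every *Slc39a8*-NSKO mouse. It had 27.3, 24.8, and 28.1 CPM in control mice 1 to 3 and 29.0, 32.2, and 30.7 CPM in *Slc39a8*-NSKO mice 1 to 3. The mean was 26.7 ± 1.73 CPM in control and 30.6 ± 1.63 CPM in *Slc39a8*-NSKO mice (SD, n = 3 each), or 115% of the control level. The log2 fold change of 0.20 (standard error 0.077) had a 95% interval from 0.03 to 0.36 and an unadjusted p of 0.0237, and it did not pass after adjustment over all genes (edgeR adjusted p = 0.867). With each mouse left out in turn it stayed between 0.15 and 0.24.

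The monophosphatase genes overlapped between the genotypes. *Impa1* (ENSMUSG00000027531.16, chromosome 3, 10311956 to 10331439, minus strand) had 81.9, 83.1, and 84.8 CPM in control mice 1 to 3 and 85.7, 81.5, and 77.1 CPM in *Slc39a8*-NSKO mice 1 to 3. Its log2 fold change was −0.03 (standard error 0.058), and the 95% interval from −0.16 to 0.09 was the narrowest of the 6 genes (edgeR adjusted p = 0.994). *Impa1* shares 4.47% of its exon bases with *Gm38303*, which had 0 counts. *Impa2* (ENSMUSG00000024525.6, chromosome 18, 67289186 to 67322472, plus strand) was counted far less, with between 50 and 94 counts in a mouse. It had 4.54, 4.73, and 3.21 CPM in control mice 1 to 3 and 3.95, 3.54, and 4.09 CPM in *Slc39a8*-NSKO mice 1 to 3, with control mouse 3 the lowest of all. Its log2 fold change was −0.11 (standard error 0.189, 95% interval from −0.52 to 0.30, edgeR adjusted p = 0.994), so that levels between 0.699 and 1.23 times that of control lie within the interval at this depth. The antisense transcript *B430212C06Rik* covers 23.6% of the exons of *Impa2*. It was counted 8 to 19 times per mouse, and reads of the pair cannot be told apart unless the counting used the strand, which is not given in the sources used here.

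Of the 5 genes other than *Slc2a13*, 0 had an adjusted p below 0.05 in the edgeR fit, where 0.0980% of all genes tested did, 0.0735% lower and 0.0245% higher in *Slc39a8*-NSKO mice. The count was also 0 in DESeq2's Wald test, where 0.136% of 27181 genes passed, 0.107% lower and 0.0294% higher, and 0 in limma-voom. The unadjusted p in edgeR's test was below 0.05 for *Isyna1*, as it was for 5.39% of all genes tested. That of *Slc5a11* was also below 0.05, but nothing is read from its p, adjusted or not, since the gene passed the filter only through the controls. *Isyna1* was higher without overlap between the genotypes, as were 5.07% of all genes tested, while 5.26% were lower without overlap. *Slc2a13* and *Slc5a11* were also without overlap, but nothing is read from these against the share over all genes, since the former was chosen for its lower level and the latter passed the filter only through the controls.

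Per length of exons, *Impa1* and *Isyna1* were more abundant than the importer genes. *Impa1* had the highest level, at 15.1 ± 0.562 CPM per kilobase of merged exons (SD over the 6 mice), followed by *Isyna1* at 11.8 ± 1.08 and *Slc2a13* at 5.59 ± 1.31. *Slc5a3* followed at 3.08 ± 0.246, *Impa2* at 0.747 ± 0.107, and *Slc5a11* at 0.355 ± 0.166 CPM per kilobase. The ranges of the 6 mice did not overlap between any neighbours in this order, and the order was the same with the length of the longest annotated transcript. For *Slc2a13* and *Slc5a3*, the closest neighbours among importers, the lowest *Slc2a13* value was 4.001 and the highest *Slc5a3* value 3.41 CPM per kilobase.

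*Slc2a13* made up most of the summed importer level per kilobase in both genotypes. Of the summed level per kilobase of *Slc2a13*, *Slc5a3*, and *Slc5a11*, it made up 67.9%, 66.7%, and 61.0% in control mice 1 to 3 and 60.5%, 53.2%, and 58.8% in *Slc39a8*-NSKO mice 1 to 3. The mean share was 65.2% ± 3.67 for controls and 57.5% ± 3.82 for knockouts (SD, n = 3 each), and the groups met closely at 61.0% and 60.5%. In plain counts there were 1.68 ± 0.233 *Slc2a13* counts for each *Slc5a3* count in control mice and 1.12 ± 0.140 in *Slc39a8*-NSKO mice (SD, n = 3 each). The knockouts 1 to 3 had ratios of 1.22, 0.962, and 1.18, so that in mouse 2 *Slc5a3* had more counts than *Slc2a13*. These shares and ratios follow from the lower level for which *Slc2a13* was chosen and are given without a test.

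**Figure D2:**
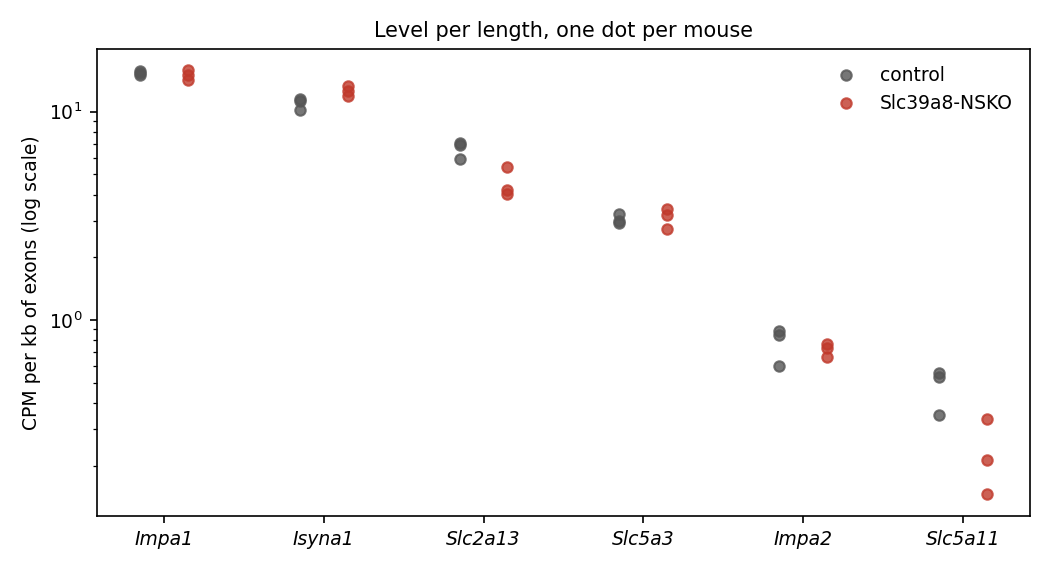
Level per length of the 6 genes in CPM per kilobase of merged exons (vertical log axis), with 1 dot per mouse and the genotypes side by side. *Impa1* is highest and *Slc5a11* lowest, and *Slc2a13* lies above *Slc5a3* in every mouse, from 4.001 to 7.05 against 2.72 to 3.41 CPM per kilobase.

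Of 96 genes in 6 lists of inositol use, related transporters, and osmotic response, 84 passed the filter and 0 of these had an adjusted p below 0.05 in the edgeR fit, in DESeq2's Wald test, or in limma-voom. The unadjusted p was below 0.05 for 4 of the 84, against 5.39% of all genes tested, and the values did not overlap for 3 lower and 2 higher genes, against 5.26% and 5.07%. Their log2 fold changes, 57 positive and 27 negative, had a median of 0.03, beside 0.0011 over all genes tested. The 12 listed genes that were not tested, such as *Miox*, which breaks inositol down, and *Slc2a2*, had at most 13 counts in any mouse.

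Enzymes that turn inositol phosphates over had log2 fold changes between −0.11 and 0.43. Of 29 listed genes 27 were tested, 16 with a positive and 11 with a negative log2 fold change, and their median was 0.00. *Inpp5a*, which removes a phosphate from inositol trisphosphate, was the most abundant, at 503 ± 2.15 CPM in control and 514 ± 32.8 CPM in *Slc39a8*-NSKO mice (SD, n = 3 each). *Ip6k1*, an inositol hexakisphosphate kinase, and *Inpp4a*, a phosphoinositide phosphatase, had log2 fold changes of −0.02 and 0.00. *Itpk1*, an inositol phosphate kinase, had 77.4, 84.1, and 80.6 CPM in control mice 1 to 3 and 88.6, 87.7, and 90.5 CPM in *Slc39a8*-NSKO mice 1 to 3, which did not overlap (log2 fold change 0.14, edgeR adjusted p = 0.867). *Inpp5d*, a phosphatase of blood and microglial cells, had the largest difference among the tested genes of the list, 0.43 on the log2 scale, at a level of 3.58 CPM over the 6 mice (edgeR adjusted p = 0.925).

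All 24 genes of phosphatidylinositol synthesis and phosphorylation were tested, and the genotypes overlapped in each of the 24. Their log2 fold changes lay between −0.04 and 0.20, 18 of them positive and 6 negative, with a median of 0.03. *Cds2*, which makes the lipid that is joined to inositol, had 577 ± 14.6 CPM in control and 587 ± 14.2 CPM in *Slc39a8*-NSKO mice (SD, n = 3 each). *Pip5k1c*, a kinase that makes phosphatidylinositol bisphosphate, and *Pitpnm1*, a phosphatidylinositol transfer protein, had log2 fold changes of 0.06 and −0.04. The lowest unadjusted p values belonged to the kinases *Pip4k2b* (log2 fold change 0.17, edgeR adjusted p = 0.896) and *Pik3c2a* (0.20, adjusted p = 0.908).

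Among 15 phospholipase C and receptor genes, all tested, the median log2 fold change was 0.02. *Itpr1*, the inositol trisphosphate receptor of Purkinje cells, was by far the most abundant, with 2845, 2086, and 2360 CPM in control mice 1 to 3 and 2924, 2787, and 2735 CPM in *Slc39a8*-NSKO mice 1 to 3. Control mouse 1 lay among the knockout mice and the other control mice below them. The log2 fold change was 0.21 (standard error 0.086, edgeR adjusted p = 0.885). Without control mouse 1 it was 0.34 and passed the threshold (adjusted p = 0.0433), and it also passed with no filter on low counts (adjusted p = 0.00793). Under each other alternative the adjusted p was 0.344 or higher. *Plcb4*, the phospholipase C of many Purkinje cells, had a log2 fold change of 0.02 and *Plch2* one of 0.01. *Plcd4* had values between 22.1 and 24.6 CPM in control and between 20.4 and 21.4 CPM in *Slc39a8*-NSKO mice (log2 fold change −0.15, edgeR adjusted p = 0.968).

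Related transporters made up a pair of lists. Of 11 other SLC2 genes 9 were tested, and the glucose transporters *Slc2a3* and *Slc2a1* had 146 and 129 CPM in control mice, with log2 fold changes of −0.03 and 0.09. *Slc2a8* had a log2 fold change of 0.06, and *Slc2a10* was lower without overlap at −0.39 (standard error 0.197, edgeR adjusted p = 0.938), with between 3.19 and 5.69 CPM in a mouse. Of 11 other SLC5 genes only *Slc5a1*, *Slc5a5*, and *Slc5a6* passed the filter. *Slc5a1*, a sodium-coupled glucose transporter, was higher without overlap, at 10.5 ± 0.541 CPM in control and 12.3 ± 0.695 CPM in *Slc39a8*-NSKO mice (SD, n = 3 each, edgeR adjusted p = 0.938). *Slc5a5* and *Slc5a6* had log2 fold changes of 0.05 and 0.03.

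The osmotic response genes overlapped between the genotypes in all 6 cases. *Nfat5*, the factor that induces *Slc5a3* under hypertonic conditions, had 130 ± 2.50 CPM in control and 128 ± 6.38 CPM in *Slc39a8*-NSKO mice (SD, n = 3 each). *Hspa4l*, *Slc38a2*, and *Akr1b3* had log2 fold changes of 0.04, 0.02, and 0.04. The list's range was from −0.02 to 0.09 and its lowest adjusted p in the edgeR fit was 0.994.

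**Figure D3:**
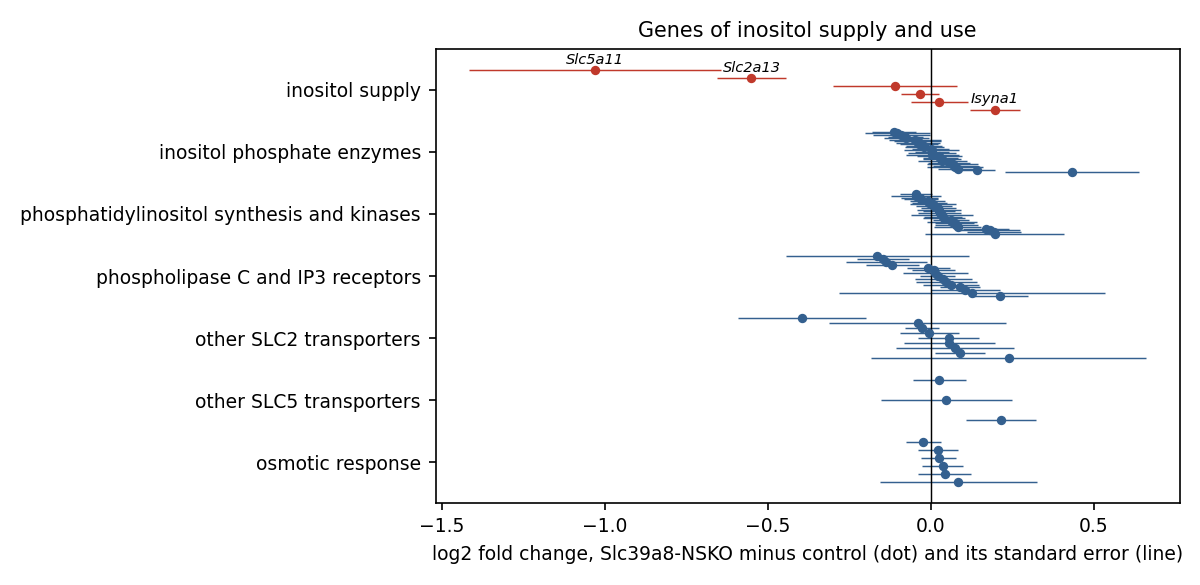
Log2 fold change of *Slc39a8*-NSKO minus control (horizontal axis) for each tested gene of inositol supply (red) and of the 6 lists of inositol use, related transporters, and osmotic response (blue), with lines of 1 standard error. The blue dots range from −0.39 to 0.43, and the red dots from −1.03 (*Slc5a11*, which passed the filter only through the controls) to 0.20 (*Isyna1*), with *Slc2a13*, chosen for its lower level, at −0.55.

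The genes beside *Slc2a13* on chromosome 15 did not all differ in the same direction, and most of those tested had positive log2 fold changes. Of the 5 nearest protein-coding genes on each side, 8 were tested, and 0 had an adjusted p below 0.05 in the edgeR fit, in DESeq2's Wald test, or in limma-voom, while 1 had an unadjusted p below 0.05 in the edgeR fit. The shares over all genes tested were 0.0980% and 5.39% in the edgeR fit. *Abcd2*, a peroxisomal fatty acid transporter 75.9 kb away, had a log2 fold change of 0.06, and *Lrrk2*, a kinase 99.9 kb away on the other side, one of 0.14. *Kif21a*, *Alg10b*, *Cntn1*, and *Gxylt1* had log2 fold changes of 0.06, 0.14, 0.10, and −0.06, and the genotypes overlapped in each. *Cpne8* was lower without overlap (−0.24, edgeR adjusted p = 0.968) and *Pdzrn4* higher without overlap (0.79, adjusted p = 0.872), the latter at 0.827 CPM in control mice, where 5.26% and 5.07% of all genes tested were lower and higher without overlap. *CN725425* and *Smgc* had too few counts to be tested.

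The genes whose levels followed *Slc2a13* most closely over the 6 mice were *Pde10a* and *Creb5*. Likeness was measured as the root mean square, over the 6 mice, of the difference in log2 CPM after each gene was centred on its own mean, so that 0 is an identical pattern. It was 0.0641 for *Pde10a*, which encodes a phosphodiesterase that degrades cAMP and cGMP, and 0.0773 for *Creb5*, a transcription factor related to CREB, against a median of 0.344 over 16329 genes. *Pde10a* had 99.5, 108, and 92.4 CPM in control mice 1 to 3 and 78.6, 55.7, and 60.6 CPM in *Slc39a8*-NSKO mice 1 to 3. *Creb5* had 16.1, 17.4, and 15.4 CPM in control mice 1 to 3 and 12.1, 9.81, and 10.2 CPM in *Slc39a8*-NSKO mice 1 to 3. All 3 genes were lowest among controls in control mouse 3 and highest among knockouts in *Slc39a8*-NSKO mouse 1. Nothing further is read from this, since *Pde10a* and *Creb5* were picked for nearness to *Slc2a13* over these same mice. The next genes were *Gm10785* (0.0914), *3110001I22Rik* (0.102), and *Gpr21* (0.103), each with a mean below 3 CPM over the 6 mice. The measure includes the difference between the genotypes, so that genes lower by a like amount rank high, and by deviations from each genotype's own mean 0 of these 5 genes were among the 5 nearest. The other inositol supply genes lay between rank 1700 (*Impa2*, 0.283) and rank 14946 (*Slc5a11*, 0.536).

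**Figure D4:**
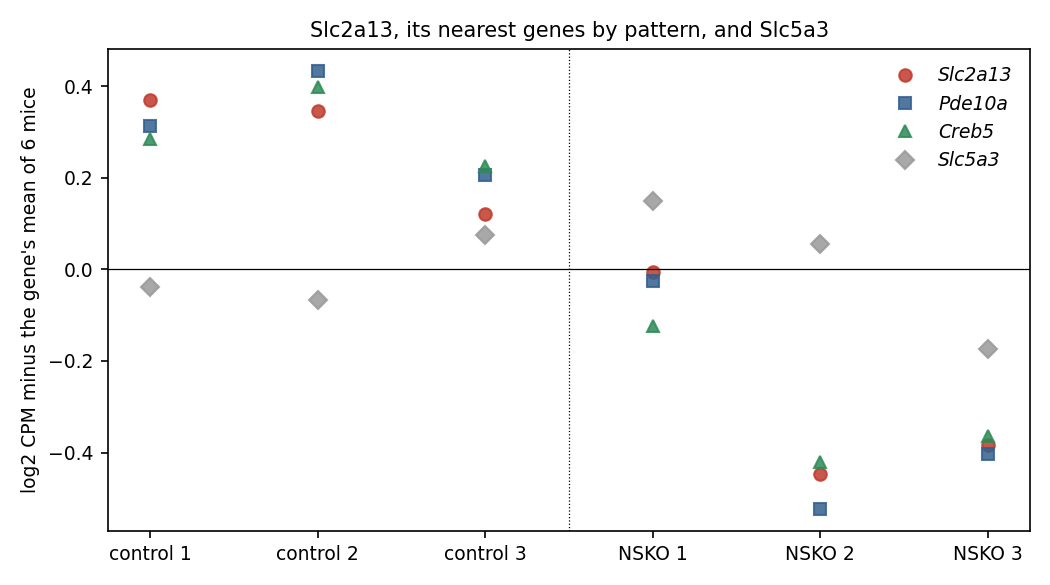
Log2 CPM of *Slc2a13*, *Pde10a*, *Creb5*, and *Slc5a3* in each mouse (horizontal axis), after each gene's mean over the 6 mice was subtracted (vertical axis, log2 units). *Slc2a13*, *Pde10a*, and *Creb5* lie between 0.12 and 0.43 in control mice and between −0.52 and −0.01 in *Slc39a8*-NSKO mice, and *Slc5a3* between −0.17 and 0.15 throughout.

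Since the tissue is mixed, 10 lists of cell type markers were read beside these values, and 0 of their 69 tested genes had an adjusted p below 0.05 in the edgeR fit, in DESeq2's Wald test, or in limma-voom, while 8 had an unadjusted p below 0.05 in the edgeR fit, where 5.39% of all genes tested did. The label of cerebellum is met by high levels of the Purkinje cell markers *Car8* and *Rgs8* (1694 and 1460 CPM in control mice) and of the granule cell markers *Cbln3* and *Cbln1* (1562 and 996 CPM). The summed level of 9 Purkinje cell markers was 6192 to 6515 CPM in control and 6165 to 6984 CPM in *Slc39a8*-NSKO mice, and that of 8 granule cell markers was 5405 to 5696 and 5410 to 5858 CPM. The sums of the genotypes overlapped in both lists, while the granule cell marker *Rbfox3* was higher without overlap (log2 fold change 0.12).

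The sums also overlapped for 7 interneuron markers (2178 to 2271 CPM in control and 2141 to 2358 CPM in *Slc39a8*-NSKO mice) and 5 granule precursor markers (30.5 to 34.7 and 32.0 to 33.5 CPM). *Atoh1*, which defines these precursors, was at 0 counts in each mouse, a reading for which counting error permits as many as 3. The 5 summed markers had means from 0.662 to 15.7 CPM over the 6 mice, and 1 was higher and 1 lower without overlap. With *Atoh1* at 0 counts, nothing is read of precursors from this sum. Overlap was likewise seen for 4 oligodendrocyte precursor markers (73.0 to 80.2 and 73.6 to 82.1 CPM), 6 endothelial markers (133 to 162 and 138 to 154 CPM), and 8 oligodendrocyte markers (8415 to 9598 and 7829 to 9442 CPM), though all 8 of the last had negative log2 fold changes with a median of −0.07. All 6 choroid plexus markers, led by *Ttr*, had positive log2 fold changes with a median of 0.38, and their sums, which *Ttr* makes up for the most part, were 767 to 1109 CPM in control and 900 to 1553 CPM in *Slc39a8*-NSKO mice. The unadjusted p was below 0.05 for 3 of these 6 markers, and *Folr1* was higher without overlap, at 2.34 ± 0.332 CPM in control and 4.58 ± 1.06 CPM in *Slc39a8*-NSKO mice (SD, n = 3 each, log2 fold change 0.96, edgeR adjusted p = 0.228).

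The sums did not overlap for 9 Bergmann glia and astrocyte markers (3607 to 4018 CPM in control and 4082 to 4112 CPM in *Slc39a8*-NSKO mice) or for 7 microglia markers (104 to 114 and 121 to 124 CPM). In the former list 8 of 9 log2 fold changes were positive, *Gfap*, *Aqp4*, and *Hopx* were higher without overlap, and *Sept4* was lower without overlap. In the latter 6 of 7 were positive, and *Csf1r* was higher without overlap. The part of these cell types in the values of *Isyna1*, *Slc2a13*, and *Slc5a11* was not tested.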

How the data were processed

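RNA was isolated from the cerebellum of each mouse, reverse-transcribed with oligo-dT, and sequenced as paired-end reads. Per the labels, the submitters' processing notes name FastQC, STAR, RSEM, DESeq2, and the build mm10. The authors deposited 1 table of expected counts for each gene, not scaled to depth or length, and all 6 sample columns were used. The annotation version and the strand setting are not given in the sources used here. GENCODE M21 of GRCm38 gave names, positions, and lengths and holds 53620 of the 53715 genes, while *Impa2* has another version there. The 92 spike-in rows were left out.

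Expected counts were rounded and analysed in R 4.3.3 with edgeR 4.0.16 (TMM, filterByExpr, glmQLFit, and glmQLFTest, no covariate) over 16330 genes, with Benjamini-Hochberg adjustment over all of them and a threshold of 0.05. The standard error is the absolute log2 fold change divided by the square root of F, and 95% intervals use the fit's degrees of freedom. DESeq2 1.42.0, limma-voom (limma 3.58.1), other normalizations and filters, unrounded counts, a replicate block, and each mouse left out were alternatives. CPM use TMM-scaled libraries, and log2 CPM for likeness used a prior count of 2. The fit was tested on simulated data with known changes. The rule for named genes covered the 6 genes, *Slc39a8*, genes that pass, the 3 most abundant and the 2 with the lowest p of each list, neighbours of *Slc2a13*, the 5 nearest patterns, and genes sharing exons. In marker lists it covered the 2 most abundant genes, named where a list's values are described except for an item not reported here, while *Gfap*, *Aqp4*, *Hopx*, *Sept4*, *Rbfox3*, *Folr1*, *Atoh1*, and *Miox* and *Slc2a2* among untested genes were chosen after their values were seen. The genes and lists were chosen with earlier results of these data known. The counts of any 2 mice of a genotype differed by more than the sampling noise (chi-square over degrees of freedom, 4.18 to 8.30). The methods state separate mice, while a legend speaks of technical triplicates, in which case p-values would cover technical spread only.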

Additional observations from a re-analysis of the deposited data

How the results depend on the processing

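The calls for the 5 genes other than *Slc2a13*, for the neighbours, and for *Slc39a8* were the same under each alternative that gave a value, and *Slc5a11* had none with at least 10 counts in every mouse because the filter removed it. The log2 fold change of *Slc2a13* was between −0.56 and −0.54 under the alternatives that kept all mice. With a mouse left out, the log2 fold change of *Slc5a3* ranged from −0.043 (without *Slc39a8*-NSKO mouse 1) to 0.114 and that of *Impa1* from −0.069 (without *Slc39a8*-NSKO mouse 1) to 0.0066 (without *Slc39a8*-NSKO mouse 3), so that both changed sign. The count of phospholipase C and receptor genes past the threshold was 0 and became 1 (*Itpr1*) with no filter, and it was also 1 without control mouse 1, with a range from 0 to 1 over the mice left out. With the longest transcript as length, *Slc2a13*, *Isyna1*, and *Impa1* were at 7.16, 15.0, and 19.7 CPM per kilobase. By deviations from each genotype's own mean, 0 of the 5 nearest genes to *Slc2a13* were shared, since this measure leaves out the difference between the genotypes. The cause of the other shifts was not tested.

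Same-numbered mice 1 to 3 correlated in their deviations from the group means with r of 0.142, 0.116, and 0.0104. Differently numbered mice had r from −0.177 to 0.0665, so that the same-numbered mice 1 and the same-numbered mice 2 had the highest values. The main fit did not take the numbers as pairs, and whether they stand for a shared effect was not tested. With the replicate block, none of the 5 genes passed, and the log2 fold changes of *Slc5a11* and *Isyna1* were −1.07 and 0.20. *Slc5a11*, with 8 to 24 counts per mouse, and *Impa2*, with 50 to 94, are limited by depth.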

Other observations

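3 noncoding entries lie in the introns of *Slc2a13* on its strand, without sharing its exons. They were looked at after their values were seen. The processed pseudogene *Gm15381* was counted 9, 12, and 8 times in controls 1 to 3 and 3, 3, and 2 times in knockouts 1 to 3, a sum of 29 against 8. The processed pseudogene *Gm15383* was counted 8, 4, and 5 times in controls 1 to 3 and 2, 5, and 8 times in knockouts 1 to 3, a sum of 17 against 15. The rRNA entry *Gm24647* had 0 counts.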
